A study of Homo sapiens with 6 samples.

Results

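The extracellular matrix genes of fibroblasts were examined for CTCF and SMC1 occupancy as a fixed list of 46 genes, of 19974 protein-coding genes on chromosomes 1 to 22 and X. For each gene the GRCh38 body was extended by 10 kb on each side, and every CUT&Tag peak overlapping that window was taken from each of 6 peak lists. The list was a choice of names and not of measured values, made with earlier results of these data known. All libraries came from IMR90, a line of fetal human lung fibroblasts, of the isolate labelled I79, and in CUT&Tag an antibody directs a transposase to cut the DNA near its target. The control libraries were labelled ctrl and came from p21 cells for CTCF and p16 cells for SMC1. Cells treated with inflachromene (ICM), a small molecule that binds HMGB1 and HMGB2, were p16 for both antibodies, with 6 days of treatment given in the CTCF label and no duration in the SMC1 label. The libraries labelled p34 name no treatment and were taken as the senescent, high-passage sample of each antibody from the series design. Control and ICM-treated CTCF cells thus differed in p number as well as in treatment, and the parts of these in any difference cannot be told apart.

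The extracellular matrix of connective tissue is built by fibroblasts, which secrete collagens, elastic fibre proteins, adhesive glycoproteins and proteoglycans together with the enzymes that modify, crosslink and degrade them. CTCF binds a sequence motif and halts the ring-shaped cohesin complex as it extrudes chromatin loops, and SMC1 is a core subunit of that ring. Cohesin is also loaded and found at active promoters and enhancers without CTCF. Type I collagen, fibronectin and SPARC are among the most abundant products of cultured fibroblasts.

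The peak lists held 4673 CTCF peaks in control, 6728 after ICM and 8577 in senescence, and 14883, 17809 and 12927 SMC1 peaks in the same order. With 1 library per group no difference between conditions could be set against a spread between replicates, so all values below are descriptions. Each list keeps the top 1% of regions of its own library, the read depth is unknown, and a gene without a listed peak is not shown to lack the protein. A rank is the percentile of a peak among all peaks of the same list, 100 being the highest. Intervals are exact (Clopper-Pearson) 95% binomial intervals, which cover counting over genes or peaks only.

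SMC1 peaks lay at most of the 46 matrix genes, and CTCF peaks at about as many as not. An SMC1 peak overlapped the window of 40 genes in control (87.0%, interval 73.7 to 95.1), 37 after ICM (80.4%, 66.1 to 90.6) and 32 in senescent cells (69.6%, 54.2 to 82.3). Of all protein-coding genes the corresponding shares were 52.0%, 51.6% and 45.2%. A CTCF peak overlapped the window of 22 genes in control (47.8%, 32.9 to 63.1), 28 after ICM (60.9%, 45.4 to 74.9) and 26 in senescent cells (56.5%, 41.1 to 71.1), beside 25.4%, 33.4% and 35.4% of all genes. With CTCF lists of equal length by total signal the counts were 22, 22 and 18, so the order of control and senescent cells turned round. The matrix genes were thus listed more often than protein-coding genes at large with either antibody in each condition. They are also longer, with a median body of 47.05 kb against 24.2 kb over all genes, and a longer window holds more peaks.

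Counted per length, the excess was still present. The windows of the 46 genes together spanned 5.07 Mb, 0.342% of the 1483 Mb in windows of all protein-coding genes. They held 126 SMC1 peaks in control, 145 after ICM and 100 in senescence, which is 24.9, 28.6 and 19.7 peaks per Mb. Over the windows of all genes the density was 8.16, 9.21 and 6.88 SMC1 peaks per Mb, so the ratios were 3.05, 3.11 and 2.87. For CTCF the matrix windows held 29, 46 and 46 peaks, and the ratios of density to that of all genes were 2.14, 2.4 and 2. With the flank of 10 kb the density at matrix genes was thus at least 2 times that of all genes in each of the 6 lists. Without a flank the CTCF ratios were 1.48 in control, 2.01 after ICM and 1.54 in senescence. With lists of equal length by highest signal the CTCF ratio in senescence was 1.69. The median percentile of total signal was 61.1, 52 and 62.8 for the CTCF peaks and 58, 56.7 and 60.2 for the SMC1 peaks, against medians of 51.1 to 51.9 for peaks in all gene windows. By highest signal the CTCF medians were 52.6, 41.8 and 42.3, against 50.6, 49 and 48.8 in all gene windows. After ICM and in senescence they were thus below those of all gene windows. The SMC1 medians by highest signal were 56.8, 58.9 and 49.7, against 48.9, 47.6 and 49.7. The CTCF peaks were also wider than their lists, with medians of 2413, 2726.5 and 1448.5 bp against 1797, 1960.5 and 1120 bp.

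**Figure D1:**
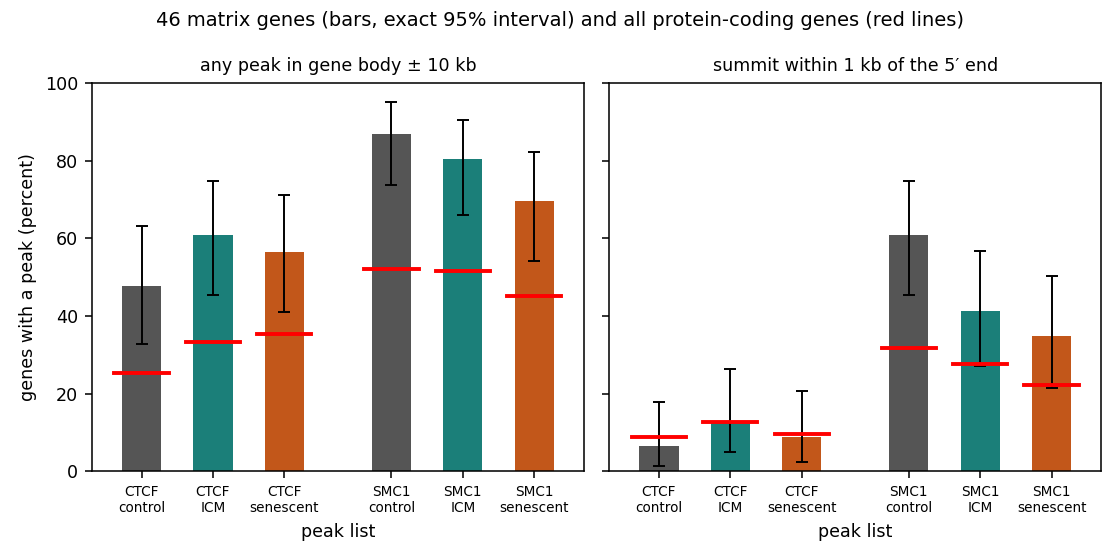
Share of the 46 matrix genes (bars, percent, with exact 95% intervals) with any peak in the gene body extended by 10 kb (left) or with a summit within 1 kb of the 5′ end (right), by peak list, and the share of all protein-coding genes (red lines). SMC1 bars stand above the red lines in both panels, while CTCF bars stand above them for the whole window and close to them at the 5′ end.

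At the 5′ end of the genes the antibodies differed. A 5′-end peak was one whose summit, the middle of its region of highest signal, lay within 1 kb of the outermost RefSeq 5′ end. SMC1 had such a peak at 28 matrix genes in control (60.9%, 45.4 to 74.9), 19 after ICM (41.3%, 27 to 56.8) and 16 in senescent cells (34.8%, 21.4 to 50.2). Over all genes with a known strand the shares were 31.7%, 27.6% and 22.3%. CTCF had a 5′-end peak at 3, 6 and 4 of the 46 genes (6.52%, 13% and 8.7%), near the shares of 8.78%, 12.6% and 9.57% of all genes. The SMC1 share stood above that of all genes in each condition, with the lower bound of the interval above it in control only, and the CTCF share stood near that of all genes.

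Fewer matrix genes had a 5′-end SMC1 peak in both other lists than in control. Between control and senescent cells 13 of the 28 genes had no 5′-end peak any more (46.4%, 27.5 to 66.1). Of all genes 11.9% had a 5′-end peak in control and not in senescent cells, which is 37.7% of those with one in control. The only gene with a 5′-end peak in senescent and not in control cells was P4HA2, a prolyl hydroxylase subunit, a pattern shown by 2.57% of all genes. Between control and ICM-treated cells 12 of the 28 were missing (42.9%, 24.5 to 62.8), a pattern of 6.98% of all genes and of 22.1% of those with a control peak. COL4A1, COL4A2 and EMILIN1 had a 5′-end peak in ICM-treated and not in control cells, as did 2.97% of all genes. The genes with a 5′-end SMC1 peak in all 3 conditions numbered 10, beside 17.7% of all genes.

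The count missing after ICM depended on the distance allowed. Of the 12 genes, COL1A1, THBS1, COL6A1, COL6A3, COL8A1 and TIMP3 had an ICM summit between 1 and 2 kb from the 5′ end. A listed peak, though not its summit, reached within 1 kb of the 5′ end at 5 of the 12 genes missing in ICM-treated cells. In senescent cells this held for 2 of the 13 missing genes. When the summit was allowed up to 2 kb from the 5′ end, 6 of 32 genes with a control peak were missing in ICM-treated cells (18.8%, beside 20.5% of all genes), and 13 of 32 in senescent cells (40.6%, beside 35.1%). At 5 kb the counts were 5 of 34 (14.7%, beside 18.9%) in ICM-treated and 10 of 34 (29.4%, beside 32.3%) in senescent cells. Within 2 kb of the 5′ end SMC1 was listed at 27 matrix genes after ICM and at 20 in senescent cells, against 32 in control. Of all genes it was listed there at 30.2% after ICM and 25% in senescent cells, and at 6655 of 19630 genes in control. At 2 kb and beyond, the share missing after ICM was thus no longer above that of all genes. The control peaks missing in senescent cells had a median total-signal percentile of 51.3, against 76.6 for those found again, and those missing in ICM-treated cells had 30.9 against 74.1.

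**Figure D2:**
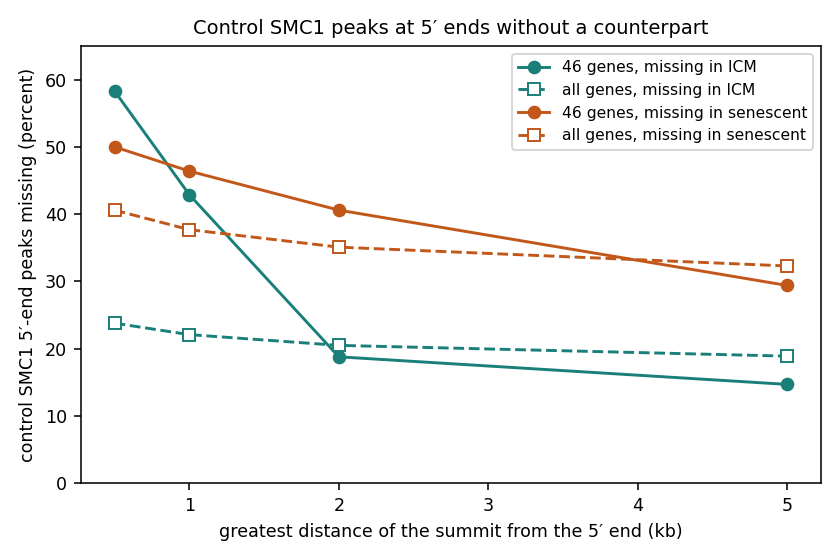
Percent of genes with a control SMC1 peak at the 5′ end that had none in ICM-treated or senescent cells (y axis), by the greatest distance allowed between summit and 5′ end (x axis, kb), for the 46 matrix genes (solid) and all protein-coding genes (dashed). The solid ICM line drops from 58.3% at 0.5 kb to 18.8% at 2 kb, while the dashed ICM line stays between 18.9% and 23.8%.

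The longest SMC1 list, that of ICM-treated cells, was not the one with the most 5′ ends. With the 3 SMC1 lists cut to 12927 peaks by total signal, the 5′-end counts were 25 in control, 13 after ICM and 16 in senescence, and the shares of all genes were 29%, 22.5% and 22.3%. The order of ICM-treated and senescent cells was then turned round, while control stayed highest. For CTCF cut to 4673 peaks the counts were 3, 5 and 3 in the same order, and the shares of all genes were 8.78%, 8.91% and 5.37%.

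**Figure D3:**
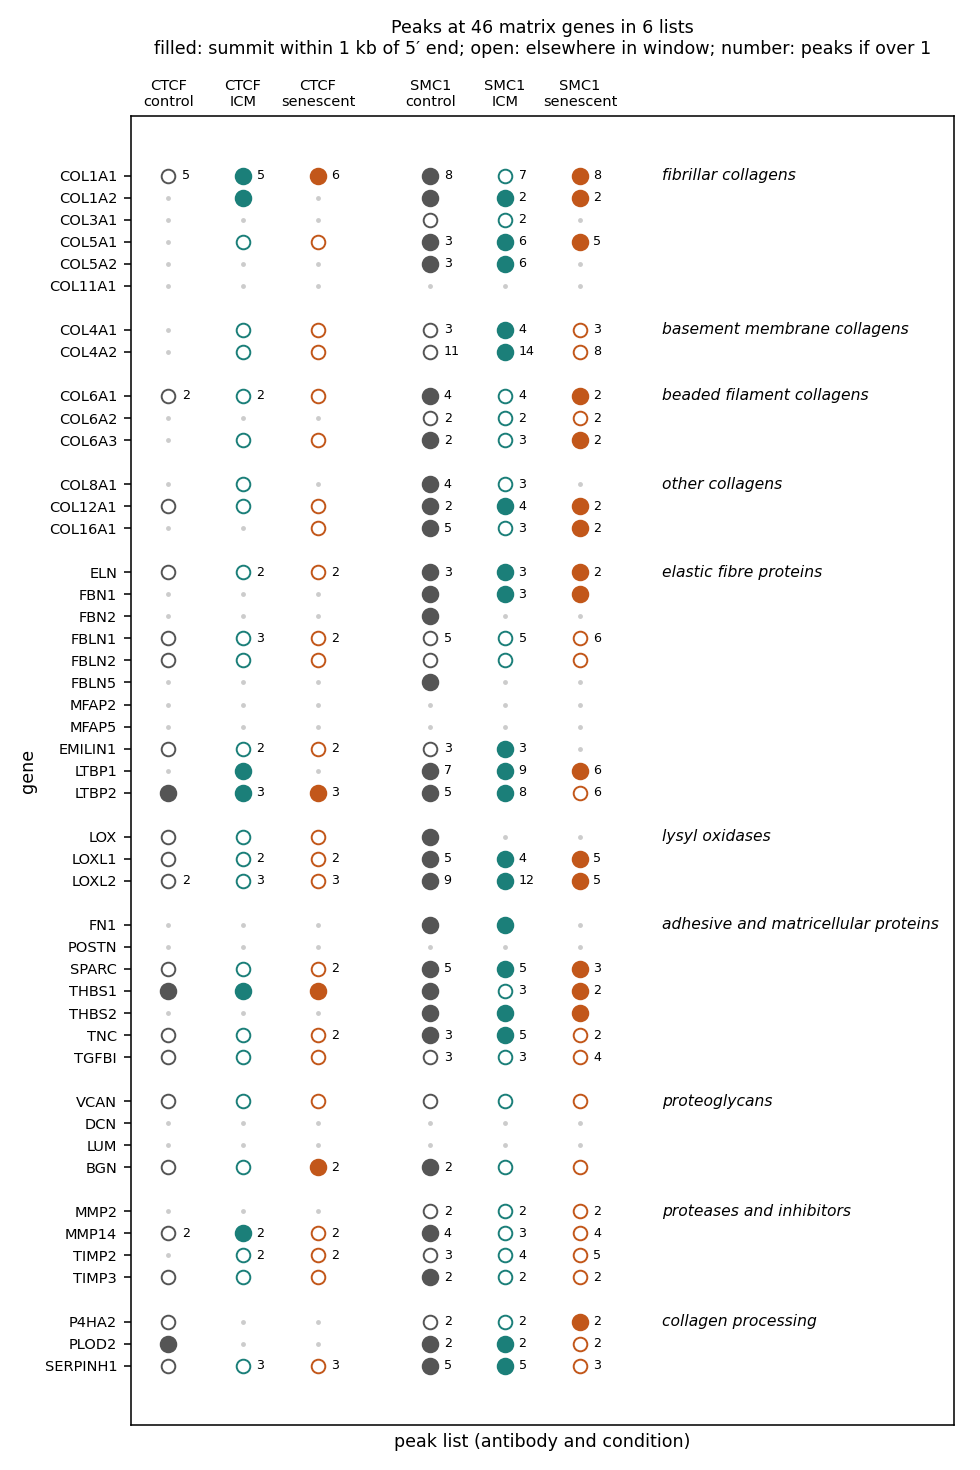
The 46 matrix genes by role (rows) and the 6 peak lists (columns). Filled circles mark a summit within 1 kb of the 5′ end, open circles a peak elsewhere in the window, small dots no peak, and numbers the peaks where there was more than 1; SMC1 control has the most filled circles (28) and CTCF control the fewest (3).

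The promoters of 6 matrix genes with a listed 5′ end are shown here, so that the sequence near the 5′-end peaks can be read beside their ranks. A printed run does not always hold the summit of a peak or lie within the peak of each list. They are the genes of highest 5′-end rank among those in a RefSeq promoter table (GRCh38.p14) that holds 32 of the 46 genes, and each run is the 250 bases before the table's start, 5′ to 3′ on the gene's own strand. Capitals mark letters that match a searched motif on either strand. These were AGGNGGC for the core of the CTCF motif, GGGCGG for the GC box, CCAAT for the box of that name, TATAAA for the TATA box and TGANTCA for the AP-1 site. Neighbouring or overlapping matches merge into 1 capital run.
THBS1, chr15:39580829-39581078, plus strand: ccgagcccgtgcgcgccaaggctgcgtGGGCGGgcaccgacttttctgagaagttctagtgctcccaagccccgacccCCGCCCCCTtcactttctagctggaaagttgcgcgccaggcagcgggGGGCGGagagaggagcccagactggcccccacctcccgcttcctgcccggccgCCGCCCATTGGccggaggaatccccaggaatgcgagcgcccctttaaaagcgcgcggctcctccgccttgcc
COL12A1, chr6:75206054-75206303, minus strand: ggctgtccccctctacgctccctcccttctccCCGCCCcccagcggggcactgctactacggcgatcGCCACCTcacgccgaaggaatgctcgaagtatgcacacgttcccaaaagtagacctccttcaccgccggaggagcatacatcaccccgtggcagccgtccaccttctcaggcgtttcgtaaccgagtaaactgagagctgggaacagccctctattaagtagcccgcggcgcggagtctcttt
COL5A1, chr9:134641555-134641804, plus strand: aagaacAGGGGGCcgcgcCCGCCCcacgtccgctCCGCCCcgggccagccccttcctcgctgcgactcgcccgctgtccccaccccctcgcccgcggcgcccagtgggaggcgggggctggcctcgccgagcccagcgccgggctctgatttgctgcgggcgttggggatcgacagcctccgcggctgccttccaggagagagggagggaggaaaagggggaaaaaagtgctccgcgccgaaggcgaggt
LTBP2, chr14:74612238-74612487, minus strand: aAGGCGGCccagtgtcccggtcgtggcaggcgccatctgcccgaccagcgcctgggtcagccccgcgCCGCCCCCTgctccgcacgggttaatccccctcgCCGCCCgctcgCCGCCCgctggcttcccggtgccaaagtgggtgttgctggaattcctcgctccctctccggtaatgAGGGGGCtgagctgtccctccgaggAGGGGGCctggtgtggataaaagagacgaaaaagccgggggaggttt
SPARC, chr5:151686916-151687165, minus strand: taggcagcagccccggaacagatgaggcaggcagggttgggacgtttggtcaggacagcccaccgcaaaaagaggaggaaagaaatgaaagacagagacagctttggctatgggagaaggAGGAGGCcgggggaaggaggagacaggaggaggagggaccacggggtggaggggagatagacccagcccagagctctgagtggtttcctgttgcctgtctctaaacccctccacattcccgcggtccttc
FBN1, chr15:48644971-48645220, minus strand: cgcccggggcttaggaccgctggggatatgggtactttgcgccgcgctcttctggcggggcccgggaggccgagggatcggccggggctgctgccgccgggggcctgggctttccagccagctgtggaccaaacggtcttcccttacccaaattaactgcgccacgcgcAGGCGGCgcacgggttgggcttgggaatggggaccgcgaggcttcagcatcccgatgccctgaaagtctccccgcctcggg

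LTBP2, which like THBS1 had a CTCF peak at its 5′ end in all 3 conditions, held 4 matches of the CTCF core, and the other 5 promoters held 1 each. The CTCF summits of LTBP2 and THBS1 lay upstream of the printed runs in all 3 conditions. GC boxes numbered 4 in THBS1, 3 in LTBP2, 2 in COL5A1, 1 in COL12A1 and 0 in SPARC and FBN1, and only THBS1 held a CCAAT box. None of these 6 upstream runs held the TATA or the AP-1 letters. Their G and C content ranged from 59.2% in SPARC to 74% in COL5A1. The FBN1 start of the table lies inside the annotated gene, 1063 bp from the summit of the control SMC1 peak. The printed FBN1 run lies within that control peak and outside the 5′-end SMC1 peaks of ICM-treated and senescent cells. Over 250 upstream bases the CTCF core was found in 19 of 32 matrix promoters (59.4%) and in 37.2% of 15813 promoters of protein-coding genes, and the GC box in 22 (68.8%) against 56%. CCAAT was found in 13 of 32 (40.6%, against 34.4%), TATAAA in 3 (9.38%, against 9.25%) and TGANTCA in 2 (6.25%, against 5.05%). The matrix promoters were also richer in G and C, with a median of 69.6% against 62.4%, and GC-rich sequence holds more matches of GC-rich letters. A match is a string of letters and no site of binding.

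Fibrillar collagens form the tensile fibres of connective tissue. SMC1 had a 5′-end peak at 4 of the 6 genes in control and at 3 in each of the ICM-treated and senescent lists. COL1A1, which encodes the main chain of type I collagen (chr17:50184101-50201631, minus strand), carried the most peaks of all 46 genes, 39 over the 6 lists. CTCF accounted for 5, 5 and 6 of them in control, ICM-treated and senescent cells, and SMC1 for 8, 7 and 8. Each of the 6 lists held peaks in the body and in both flanks of the gene, with stretches free of listed peaks between them.

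The body of COL1A1 held the widest peak of 3 of the 6 complete lists, which was noted after the values were seen. In CTCF of control cells that peak spanned 12115 bp (chr17:50185305-50197419) and ranked 28 of 4673 by total signal. In CTCF of senescent cells it spanned 7661 bp (chr17:50185346-50193006) and ranked 35 of 8577, and in SMC1 of senescent cells 6990 bp (chr17:50185418-50192407) and ranked 4 of 12927. By highest signal the percentiles of these peaks were 25, 16.3 and 81.3, so that the 2 CTCF peaks were broad and low. In ICM-treated cells the CTCF peaks of the body spanned 5497 and 4194 bp at total-signal percentiles of 59 and 7.86, and the SMC1 peaks beyond the first 2 kb spanned 882 and 1436 bp at 53.4 and 26.4. The body peaks after ICM were thus narrower and of lower rank than the widest ones of control or senescent CTCF and senescent SMC1.

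At the COL1A1 start all 6 lists held a peak. The SMC1 summit lay 26 bp before the 5′ end in control and 56 bp before it in senescent cells, at percentiles of 88.4 and 98.9. In ICM-treated cells the nearest SMC1 summit lay 1318 bp inside the gene at a percentile of 99.8, and that peak (chr17:50199778-50202121) still covered the 5′ end. CTCF summits lay 1009, 922 and 786 bp inside the gene in control, ICM-treated and senescent cells, at percentiles of 95.4, 98.6 and 67.8. The control CTCF summit therefore lay just outside the 1 kb limit. Away from the start, an SMC1 peak 8183, 8123 and 8311 bp upstream ranked at 99.7, 96.9 and 97.5, where the CTCF peak ranked at 17.1, 11.5 and 26.3. A site 23088 to 23256 bp from the start was listed in all 6 lists, at 69.8, 82.5 and 85.9 for CTCF and 95.4, 97.7 and 94.8 for SMC1.

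**Figure D4:**
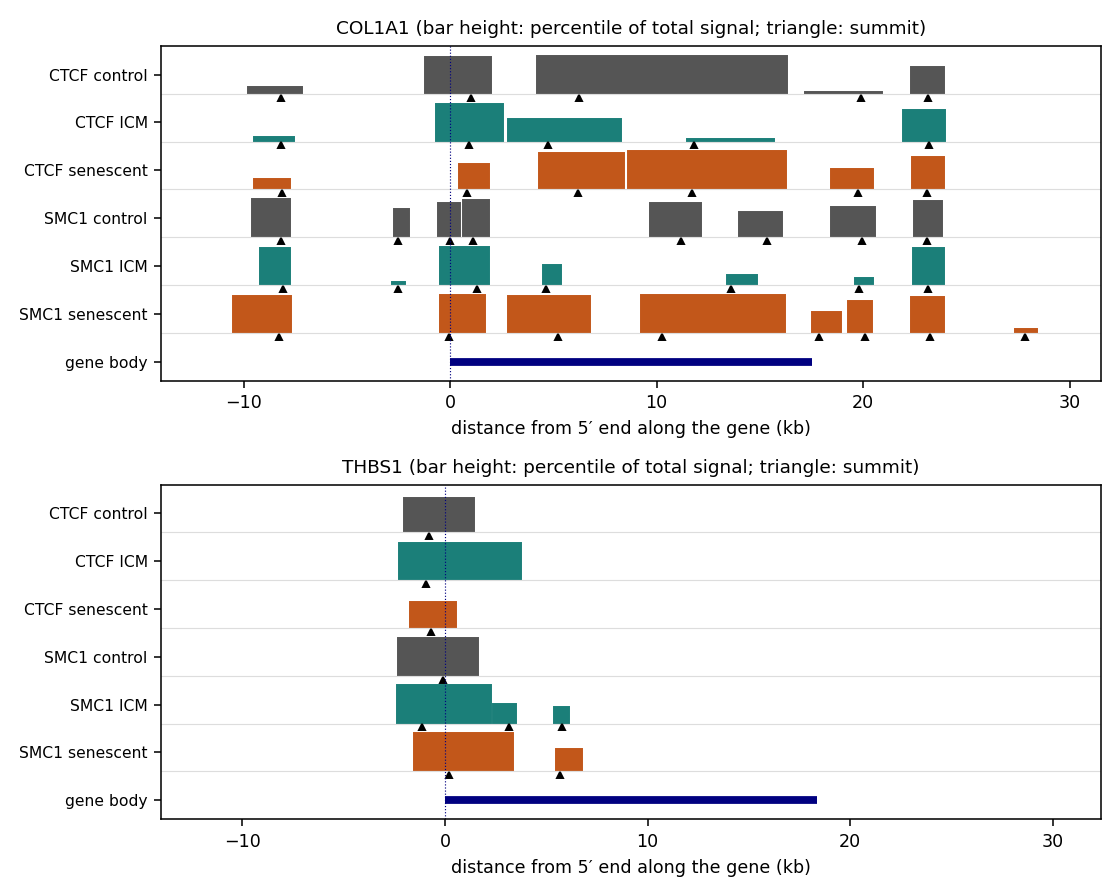
Peaks at COL1A1 (top) and THBS1 (bottom) by list, drawn at their distance from the 5′ end along the gene (x axis, kb), with bar height for the percentile of total signal and a triangle at each summit. Wide body peaks at COL1A1 stand in CTCF control, CTCF senescent and SMC1 senescent, and at THBS1 all 6 lists hold a peak across the start.

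COL1A2, the partner chain of type I collagen, had an SMC1 summit within 110 bp of its 5′ end in all 3 conditions, at percentiles of 98.9 in control, 85 after ICM and 81.9 in senescence. CTCF was listed there in ICM-treated cells, 679 bp inside the gene at a percentile of 46.2. COL5A1, a chain that sets fibril diameter, had SMC1 summits within 1 kb in each list, the control one at 1000 bp, the limit itself, with a percentile of 96.9. Its CTCF peaks were 1 after ICM, 1031 bp from the 5′ end at 27.5, and 1 in senescent cells in the body at 18.

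COL5A2 had SMC1 peaks in control (3) and ICM-treated cells (6) and none in senescent cells. Its 5′-end peaks, 48 and 308 bp upstream at percentiles of 67 and 21, were also less than 1 kb from the start of WDR75. The RefSeq body of COL5A2 used here (409.2 kb) is 2.12 times the length in GENCODE (193.4 kb), so this start and the body next to it are uncertain. If the shorter gene has the same 3′ end, all control peaks and most ICM peaks of COL5A2 lie outside it. The 5′-end counts above include COL5A2 by its RefSeq start. COL3A1, the chain of type III collagen, had no 5′-end peak and an SMC1 peak 1485 bp inside the gene in control (40.1) and 1489 bp in ICM-treated cells (76.3). COL11A1, a minor fibrillar chain, had no peak in any list.

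The basement membrane collagen genes COL4A1 and COL4A2 lie head to head with 126 bp between them, so peaks at their shared start count for both. SMC1 peaks were numerous at COL4A2, with 11 in control, 14 after ICM and 8 in senescence. The peaks of the shared start lay 1479 bp inside COL4A2 in control (percentile 84.5), at 521 and 1676 bp after ICM (47 and 52.4) and at 1594 bp in senescent cells (16.1). The 5′-end call in ICM-treated cells thus came with 2 narrower peaks, of 930 and 1077 bp, where control had a single peak of 2647 bp. Within the COL4A2 body the site 89761 bp from the start ranked high in control (85), ICM-treated (94.1) and senescent cells (77.6, at 89822 bp). A site near 105 kb ranked at 85.4, 92.7 and 48.8 for SMC1, and CTCF was listed there after ICM (5.38) and in senescent cells (24.8) but not in control.

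The beaded filament collagens of type VI link cells to the surrounding matrix. COL6A1 and COL6A3 had a 5′-end SMC1 peak in control and senescent cells and none in ICM-treated cells. For COL6A1 the summit stood 252 bp before the 5′ end in control (percentile 19.8), 379 bp after it in senescent (88.3) and 1232 bp after it in ICM-treated cells (58.1). For COL6A3 it stood 143 bp and 144 bp before the 5′ end in control and senescent cells (14.2 and 20) and 1090 bp after it in ICM-treated cells (8.71). The ICM summits of both genes lay just outside the 1 kb limit and inside the gene. Upstream of COL6A1, 10890, 10886 and 10904 bp before the start, CTCF ranked at 60.3, 52.5 and 96, with an SMC1 summit beside it in all 3 conditions. These summits lay outside the window. The CTCF peaks of all 3 conditions reached into it, and of the SMC1 peaks those of control (86.8) and ICM-treated cells (82.4). COL6A2 had 2 SMC1 peaks in each condition, none at its 5′ end, and no CTCF peak.

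Among the other collagens, COL12A1, which decorates collagen fibrils, was listed with SMC1 at its 5′ end in all 3 conditions, at percentiles of 97.5 in control, 65.9 after ICM and 86.9 in senescence. A place about 3 kb upstream held summits of both proteins in all conditions. CTCF there ranked at 92.4, 96.4 and 80.6 and SMC1 at 72.2, 86 and 85.7, with summits no more than 29 bp apart. The CTCF peaks of control (5883 bp) and ICM-treated cells (6629 bp) also ran across the 5′ end, so their ranks by total signal include the start. Only the senescent CTCF peak (1112 bp) was separate from the start. COL16A1, a fibril-associated collagen, had SMC1 at the 5′ end in control (percentiles 25 and 16.5) and senescent cells (34.1), and in ICM-treated cells its nearest summit stood at 2602 bp (56.7). COL8A1, a short-chain collagen, had it in control alone, at 4.31, with an ICM summit 1412 bp upstream (47.7) and no SMC1 peak in senescent cells.

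Elastic fibres consist of an elastin core on fibrillin microfibrils, and 3 of the 11 genes of this group, ELN, FBN1 and LTBP1, had a 5′-end SMC1 peak in all 3 conditions. ELN ranked at 53.9, 40.2 and 75.5, FBN1 (fibrillin) at 93, 81.8 and 49.4, and LTBP1, which tethers latent TGF-beta to the matrix, at 76.6, 84.3 and 44.7. CTCF was listed at the LTBP1 start after ICM alone, 482 bp upstream at 19.8. Far inside LTBP1, at 187517, 187518 and 187568 bp, an SMC1 peak without CTCF ranked at 97, 94.1 and 67.1.

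LTBP2, a related microfibril protein, was 1 of 2 matrix genes with a 5′-end CTCF peak in all 3 lists, as were 6.85% of all genes. CTCF summits lay 362, 405 and 401 bp upstream, at percentiles of 95.5, 94.4 and 69.4. SMC1 was listed at the same place in control (347 bp upstream, 43.8) and in ICM-treated cells (362 bp, 27.7) and not in senescent cells. In senescent cells the CTCF peak at this start therefore stood without a listed SMC1 peak, while 3080 bp inside the gene SMC1 ranked at 90.4 and CTCF at 79.5. In control and ICM-treated cells SMC1 was also listed there, at 3085 and 3101 bp (89.8 and 85), under the same wide CTCF peaks of 4394 and 5465 bp whose summits lay at the start. Downstream SMC1 peaks of LTBP2 lay within 1 kb of the 5′ ends of ISCA2 and NPC2.

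FBN2 and FBLN5, a second fibrillin and a fibulin needed for elastic fibre assembly, each had a single peak in the 6 lists, SMC1 at the 5′ end in control, at 36.8 and 21.6. FBLN1 had no 5′-end peak but a site about 51 kb inside the gene, where CTCF ranked at 90.2, 95.2 and 97.3 and SMC1 at 97.9, 96.5 and 99.7. The senescent SMC1 peak there ranked 45 of 12927. FBLN2 was listed downstream of its 3′ end only. The CTCF peak reaching its window had its summit 99261 bp from the start in control (71.5). In ICM-treated and senescent cells it was wider, with summits at 101452 and 101453 bp (92.6 and 99.2). The control list also held a CTCF summit within 100 bp of that second place, in a separate peak outside the window. SMC1 was listed near 99261 bp in all 3 conditions, at 14.7, 43.3 and 64.6. EMILIN1, an elastic fibre glycoprotein, had SMC1 at its 5′ end after ICM (356 bp, 11.6) and CTCF at its 3′ end at 79.5, 87.5 and 87.2, within 1 kb of the 5′ end of KHK. The microfibril genes MFAP2 and MFAP5 had no peak in any list.

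Lysyl oxidases crosslink collagen and elastin. All 3 genes had a 5′-end SMC1 peak in control, and LOX itself had none in the other conditions. The LOX peak stood 175 bp upstream at a percentile of 92, among the higher-ranked control peaks that were missing elsewhere, and no SMC1 peak of ICM-treated or senescent cells overlapped the LOX window. CTCF was listed at LOX in all 3 conditions, 1282, 1374 and 1442 bp inside the gene, at 43.9, 77.6 and 26.4. In ICM-treated and senescent cells LOX thus had a listed CTCF peak and no listed SMC1 peak. LOXL1 had SMC1 at its 5′ end at 9.04, 16.7 and 66.9, and at its 3′ end CTCF (47.7, 58.8, 68.9) and SMC1 (34.7, 62.8, 61.6) shared a site in all 3 conditions. LOXL2 had 34 peaks over the 6 lists, 9, 12 and 5 of SMC1 and 2, 3 and 3 of CTCF, with 5′-end SMC1 peaks at 57.9, 23.7 and 35.2. Its downstream CTCF peaks were near the 5′ end of R3HCC1, less than 1 kb away.

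Of the adhesive and matricellular proteins, THBS1, which encodes thrombospondin-1, an activator of latent TGF-beta, had the highest-ranked peaks. SMC1 peaks across its start ranked 6 of 14883 in control, 5 of 17809 after ICM and 3 of 12927 in senescence. They spanned 3987, 4617 and 4903 bp, and the ICM one (chr15:39578736-39583352) was the widest peak of its list. Summits lay 100 bp upstream in control, 1140 bp upstream after ICM and 182 bp downstream in senescence, and the ICM peak, whose summit lay outside the 1 kb limit, still covered the 5′ end. CTCF peaks of 3480, 6002 and 2277 bp had summits 779, 942 and 677 bp upstream, at percentiles of 90.6, 97.5 and 69.2 by total signal but 52.6, 68.1 and 5.44 by highest signal. Thus CTCF at THBS1 was broad in all 3 conditions, and the lowest-ranked peak was that of senescent cells. That peak was also the narrowest in bp, but the median width of its list was 1120 bp, against 1797 bp in control and 1960.5 bp after ICM. The printed THBS1 promoter lies within the peak of each of the 6 lists.

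SPARC, a collagen-binding glycoprotein, and THBS2, a second thrombospondin, had 5′-end SMC1 peaks in all 3 lists. The SPARC peak ranked at 93.3, 92.9 and 80.4 and that of THBS2 at 38.4, 4.35 and 43.1. FN1 (fibronectin) had SMC1 at the 5′ end in control (83.2) and ICM-treated cells (38.9), and its window held no other peak of either protein. TNC (tenascin-C) had it in control (7 bp, 71.5) and ICM-treated cells (925 bp upstream, 10.1), and in all 3 conditions an SMC1 peak about 95 kb inside the gene, at 74.3, 86.7 and 18.2. TGFBI, an adhesion protein induced by TGF-beta, had no 5′-end peak, but 29544 bp inside the gene SMC1 ranked at 99.4, 99.2 and 97.3, together with CTCF at 54.3, 79.5 and 69.7. POSTN (periostin) had no peak in any list.

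Proteoglycans were split between genes with peaks in all 6 lists and genes with none. VCAN (versican) had 1 CTCF and 1 SMC1 peak in each condition, about 2 kb inside the gene, at 93.2, 95.6 and 62.3 for CTCF and 98.6, 91.4 and 92.7 for SMC1. BGN (biglycan) had a site 12643 to 12699 bp inside the gene with CTCF at 61.1, 61 and 88.5 and SMC1 at 69.7, 63.7 and 58.9. At the BGN start SMC1 was listed in control (72) and CTCF in senescent cells (17.1), both also within 1 kb of the 5′ end of HAUS7. DCN (decorin) and LUM (lumican), small proteoglycans that bind collagen fibrils, had no peak in any list.

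Of the proteases and inhibitors, MMP14, a membrane-anchored metalloproteinase, had the top-ranked CTCF sites of the group downstream of the gene. At 16693, 16618 and 16574 bp from the start CTCF ranked at 97.9, 98.8 and 98.6 and SMC1 at 95.2, 96 and 98.5, and the group of 6 peaks stood between 1071 and 3839 bp wide. The MMP14 start itself was listed for SMC1 in control (145 bp upstream, 8.99) and for CTCF after ICM (221 bp upstream, 32.4), the latter broad at 4976 bp and low at a percentile of 0.29 by highest signal. TIMP3, a matrix-bound inhibitor, had SMC1 at the 5′ end in control (28 bp upstream, 51.3), and summits at 1505 bp after ICM (3.82) and 1457 bp in senescent cells (87.6). In senescent cells an SMC1 peak still reached within 1 kb of the TIMP3 5′ end. A site 4578 to 4610 bp upstream of TIMP3 held CTCF at 36.4, 46.3 and 80.9 and SMC1 at 91, 88.3 and 94.1. TIMP2, a soluble inhibitor, had an SMC1 peak in each list with a summit 10373, 10377 and 10377 bp before the start, at 99.8, 94.5 and 87, the control one ranking 38 of 14883. That peak was the highest of TIMP2 in control only. After ICM the highest stood 8960 bp upstream (97), and in senescent cells 41266 bp inside the gene (96.4). MMP2, a gelatinase, had 2 SMC1 peaks in each condition inside the gene, between 17.7 and 56.3, and no CTCF peak.

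The collagen-processing group acts in the secretory pathway, before collagen leaves the cell. PLOD2, a lysyl hydroxylase, was the only gene with a 5′-end CTCF peak in control alone. That peak stood 119 bp upstream at 24.8, and SMC1 was listed at 152 bp upstream in control (87.7) and ICM-treated cells (77.9). In senescent cells neither protein was listed at the PLOD2 start. SERPINH1, the collagen chaperone HSP47, had SMC1 at the 5′ end in control (501 bp, 41.4) and ICM-treated cells (151 bp, 75.6). In senescent cells the nearest SMC1 summit in the gene stood at 3441 bp in a peak of 3849 bp (96.9). An SMC1 peak of senescent cells still reached within 1 kb of the SERPINH1 5′ end. Between 1807 and 1906 bp inside SERPINH1 CTCF was listed in all 3 conditions at 64.1, 77.5 and 64.5 but low by highest signal (7.49, 22.1 and 2.82). An upstream SMC1 site of SERPINH1 ranked at 99.3, 97.3 and 94.9. P4HA2 had SMC1 about 2.1 kb inside the gene at 52.9, 73.2 and 85.1, and its senescent 5′-end peak stood at 532 bp and 16.6.

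Over all 46 genes, 5′-end CTCF patterns were few. THBS1 and LTBP2 were listed in all 3 conditions. In control and not in senescent cells, and in control and not in ICM-treated cells, the single gene was PLOD2 (patterns of 1.71% and 0.545% of all genes). COL1A1 and BGN were listed in senescent and not in control cells (2.50% of all genes), and COL1A1, COL1A2, LTBP1 and MMP14 in ICM-treated and not in control cells (4.41% of all genes). Of these, COL1A1 rests on a control summit just outside the limit, at 1009 bp.

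Along the genes, body peaks made up the largest class. Of SMC1 peak and gene pairs 47.7% in control, 55.4% after ICM and 50% in senescence had the summit in the body, beside 31.4%, 38% and 34.2% over all genes. At the 5′ end lay 22.7%, 14.2% and 16.7%, beside 35.7%, 29% and 29.5%, and at the 3′ end 3.91%, 4.05% and 5.88%. For CTCF the body held 31%, 43.5% and 43.5%, beside 26.4%, 27.8% and 33.4% over all genes. Body peaks were thus a larger and 5′-end peaks a smaller part of the peaks at these long genes than at all genes. The 5′-end SMC1 peaks were wider than those in the body in control, with medians of 1212 and 877 bp, while in senescent cells the medians were 1038 and 1168 bp.

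**Figure D5:**
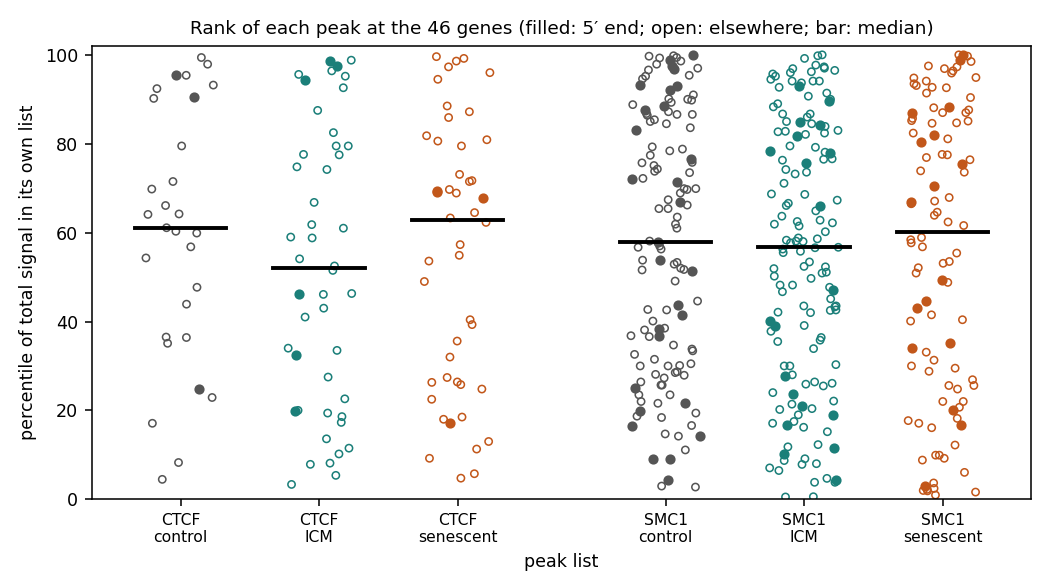
Percentile of total signal within its own list (y axis) for each peak at the 46 matrix genes, by list. Filled points are 5′-end peaks, open points others and bars the medians, which stand between 52 and 62.8; peaks span the full range of ranks in each list.

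The peaks found after ICM were compared with those of control and senescent cells, counting peaks as shared where 100 bp windows around the summits overlapped. Of 46 CTCF peaks of ICM-treated cells, 20 were shared with control (43.5%, 28.9 to 58.9) and 30 with senescent cells (65.2%, 49.8 to 78.6), beside 53.4% and 66.4% over the complete list. Of 145 SMC1 peaks, 82 were shared with control (56.6%, 48.1 to 64.8) and 55 with senescent cells (37.9%, 30 to 46.4), beside 54.3% and 38.1%. At matrix genes ICM peaks of CTCF were thus more often found in the senescent list and those of SMC1 in the control list, and the complete lists had the same order. The senescent CTCF list was the longest of its antibody, and with CTCF lists of equal length by total signal the order turned, to 59.4% with control and 56.2% with senescent cells. For SMC1 the order held at equal length, with 65.8% and 45.9%. Peaks found in both other lists ranked higher than those found in neither, with SMC1 medians after ICM of 76.6 and 33.9. In senescent cells the SMC1 medians were close, at 66.9 and 62.4.

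CTCF peaks with an SMC1 peak at the same place numbered 18 of 29 in control (62.1%, 42.3 to 79.3), 26 of 46 after ICM (56.5%, 41.1 to 71.1) and 17 of 46 in senescent cells (37%, 23.2 to 52.5). Over the complete CTCF lists the shares were 48.9%, 46.6% and 34.8%. When whole peaks were compared instead of summits, 89.7%, 84.8% and 65.2% of the CTCF peaks met an SMC1 peak. Sites with both proteins within 100 bp in all 3 conditions included those upstream of COL12A1 and TIMP3, at the 3′ end of LOXL1 and inside BGN and TGFBI. Of the SMC1 peaks at matrix genes, 14.3%, 17.9% and 16% had a CTCF summit beside them, beside 15.4%, 17.6% and 23.1% over the complete SMC1 lists. By whole peaks 26.2%, 37.2% and 32% of them met a CTCF peak.

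A second list of 48 matrix genes, among them laminins, nidogens, other collagens and matricellular CCN proteins, was counted in the same way. SMC1 overlapped the window of 36, 38 and 34 of them (75%, 79.2% and 70.8%) and their 5′ end at 24, 15 and 12 (50%, 31.2% and 25%). CTCF overlapped the window of 21, 25 and 24 (43.8%, 52.1% and 50%) and the 5′ end at 6, 7 and 5 (12.5%, 14.6% and 10.4%). The 5′ ends with SMC1 were highest in control in this list too. Its density of 18.5, 20.3 and 14.3 SMC1 peaks per Mb stood between that of the 46 genes and that of all genes.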

How the data were processed

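CUT&Tag peak lists of 6 libraries (CTCF and SMC1 in control, ICM-treated and senescent IMR90 cells) were used, 1 library per group, grouped by their titles. The authors mapped reads with Bowtie2 (2.3.4.1) to GRCh38, calibrated to E. coli reads and called peaks in each library separately with SEACR (1.3), stringent mode, top 1%. The deposited signal columns hold the total and the highest coverage of each peak as whole numbers. No common scale between lists was established, so values were used only as ranks within a list, and the depth is unknown. A filter for a CTCF motif is described in the methods and was not repeated here.

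The 46 genes and the comparison lists were chosen with earlier results of these data known. Gene extents came from RefSeq (GRCh38.p14) and strands from its promoter table (32 of the 46) or by symbol from GENCODE 44 (14), of which no coordinates were used. Strand was found for 19630 of 19974 protein-coding genes. The single mitochondrial peak of each list was left out. A peak belonged to a gene when at least 1 bp overlapped the body extended by 10 kb, and was placed by its summit at the 5′ end (within 1 kb), body, 3′ end or flank. Peaks were given in full for genes with a 5′-end CTCF peak, genes whose 5′-end SMC1 peak was in some but not all lists, the 3 genes per antibody of highest rank, the 3 with most peaks, and genes with none were named. No test was made, since each group had 1 library. Counting was tested on simulated peaks. Alternatives were lists of equal length, the upper 50% of each list by total signal, other flanks and 5′-end distances, whole peaks in place of summits, leaving out peaks at other genes' 5′ ends and, added after the data were seen, starts from the promoter table. Python 3.11.15, pandas 2.3.3, NumPy 2.4.6 and SciPy 1.17.1 were used.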

Additional observations from a re-analysis of the deposited data

Results flagged for a closer look

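Several counts at the 46 genes went opposite ways for the 2 antibodies from control to another condition, with 1 library each, and the difference between antibodies was not tested. In senescent cells there were 17 more CTCF peaks in the windows than in control (46 against 29), while the number of SMC1 peaks changed by -26 (100 against 126). The number of genes with a peak in the window changed by 4 for CTCF and by -8 for SMC1, and the number with a 5′-end peak by 1 and by -12. In ICM-treated cells the number with a window peak changed by 6 for CTCF and by -3 for SMC1, and the number with a 5′-end peak by 3 and by -9. The shares of all genes moved the same ways. With a window peak they were 25.4%, 33.4% and 35.4% for CTCF in control, ICM-treated and senescent cells, and 52.0%, 51.6% and 45.2% for SMC1. With a 5′-end peak they were 8.78%, 12.6% and 9.57% for CTCF and 31.7%, 27.6% and 22.3% for SMC1. The number of peaks after ICM was higher for both antibodies, 46 against 29 for CTCF and 145 against 126 for SMC1. The complete CTCF list was longer in senescent than in control cells (8577 against 4673) and the SMC1 list shorter (12927 against 14883). With lists of equal length by total signal the 5′-end counts in control and senescent cells were 3 and 3 for CTCF and 25 and 16 for SMC1. The counts of genes with a window peak were then 22 and 18 for CTCF and 40 and 32 for SMC1, and 22 and 17 and 39 and 32 with equal length by highest signal, so they no longer went opposite ways. After ICM they were 22 for CTCF by total and 23 by highest signal, and 36 and 35 for SMC1.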

How the results depend on the processing

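Of 191 values under the alternatives, 159 stayed within 1.5 times the count or within the 95% interval reported, and 32 moved past these limits. The order of conditions turned in some comparisons, those of close density ratios among them. At equal length by total signal 5′-end SMC1 counts were 13 after ICM and 16 in senescent cells, CTCF window counts 22 in control and 18 in senescent cells, and the shares of ICM CTCF peaks 59.4% with control and 56.2% with senescent cells. The density ratio to all gene windows stayed between 1.48 and 2.74 for CTCF and between 2.48 and 3.53 for SMC1. CTCF 5′-end counts, which are small, moved most. In control they were 7 within 2 kb and 8 by whole peaks. In ICM-treated cells they were 3 with lists of equal length by highest signal, 3 in the upper 50% of the lists by total signal, 3 within 0.5 kb, 11 within 2 kb and 14 by whole peaks. In senescent cells they were 2 with lists of equal length by highest signal, 2 within 0.5 kb, 9 within 2 kb and 9 by whole peaks. At equal length by highest signal the CTCF shares of all genes were 7.46% after ICM and 4.28% in senescent cells. For the other distances, whole peaks and the upper 50% no CTCF share of all genes was counted. Whether those counts stand near the shares of all genes is therefore not known. SMC1 5′-end counts in the upper 50% of the lists were 17, 8 and 9, and the ICM count was 10 with lists of equal length by highest signal. Genes with a CTCF window peak numbered 14 in control and 17 in senescent cells without a flank, 17 in senescent cells at equal length by highest signal, and 18 in ICM-treated cells in the upper 50% of the list. The share of ICM CTCF peaks found in control was 59.4% and 63% at equal length by total and highest signal and 66.7% in the upper 50% of the lists, and that found in senescent cells by whole peaks 84.8%. For SMC1 the share in control was 65.8% and 70.1% at equal length and 76.6% by whole peaks, and that in senescent cells 61.4% by whole peaks. Control SMC1 5′-end peaks missing in ICM-treated cells came to 18.8% within 2 kb. CTCF peaks with an SMC1 peak came to 81.2% in control without a flank and to 89.7%, 84.8% and 65.2% by whole peaks. Leaving out peaks at the 5′ ends of other genes, a flank of 25 kb and starts from the promoter table moved 0 values past these limits. The cause of these moves was not tested. No replicate could be left out. No paired analysis was possible because each group had 1 library.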
